A study of Mus musculus with 8 samples.

Results

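Interferon-stimulated genes in the brain were followed through 9 members, Ifit1, Ifit3, Isg15, Irf7, Oasl2, Bst2, Rtp4, Usp18 and Ifi27. Each was taken by its exact gene symbol from the deposited table of read counts, where each has 1 row among 25815 genes. All 9 had enough reads to be among the 16810 genes tested. Brains were taken from mice at postnatal day 50. The D50A group (n = 5) carried the Cstf2D50A allele, which alters 1 residue of the RNA-binding domain of CSTF2, a cleavage stimulation factor subunit that helps form the 3′ ends of mRNAs, and the WT group (n = 3) held wild-type littermates. Both groups came from 1 congenic colony, backcrossed for 4 generations to C57BL/6NCrl, received no treatment, and gave poly(A)-selected RNA of whole brain. The labels state neither sex, litter, zygosity nor batch, and the comparison asks whether the mutant allele changes transcript levels in the brain.

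Interferons are secreted proteins that cells release when they sense foreign or misplaced nucleic acids. Type I interferons bind the receptor IFNAR and, through the kinases JAK1 and TYK2, activate a transcription factor complex holding STAT2 and IRF9 that binds a short promoter element, the interferon-stimulated response element, and switches on the genes described here. In the healthy brain these genes run at a low basal level in microglia, vessels, other glia and neurons, and they rise in viral infection, in ageing and in inherited interferonopathies. Because whole-brain RNA was measured, fewer cells of a type and less RNA per cell cannot be told apart.

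The promoters of members that hold the core of this element are shown. Members were taken by gene symbol and not by this element. RefSeq windows (build GRCm38.p6, the same assembly as mm10) run from 250 bases before to 50 bases after the gene start and were available for 6 members. The core GAAANNGAAA was searched on both strands, counting overlapping matches. It was found in the windows of Ifit1, Ifit3, Isg15 and Bst2, 4 of the 6, and in 3.44% of all 32851 windows. Capitals mark the matches and each window reads 5′ to 3′ along the gene's own strand.
Ifit1: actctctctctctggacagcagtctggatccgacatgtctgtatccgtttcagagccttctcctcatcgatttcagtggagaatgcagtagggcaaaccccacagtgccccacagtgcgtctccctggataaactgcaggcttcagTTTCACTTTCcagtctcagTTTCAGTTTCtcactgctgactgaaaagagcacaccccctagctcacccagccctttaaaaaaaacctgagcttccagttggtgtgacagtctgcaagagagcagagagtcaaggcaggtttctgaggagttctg
Ifit3: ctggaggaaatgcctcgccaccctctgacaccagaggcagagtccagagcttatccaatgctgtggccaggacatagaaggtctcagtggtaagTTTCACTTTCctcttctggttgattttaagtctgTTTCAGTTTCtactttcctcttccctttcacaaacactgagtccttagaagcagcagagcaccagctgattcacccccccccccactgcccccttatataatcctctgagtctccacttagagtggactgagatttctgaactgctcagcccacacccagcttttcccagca
Isg15: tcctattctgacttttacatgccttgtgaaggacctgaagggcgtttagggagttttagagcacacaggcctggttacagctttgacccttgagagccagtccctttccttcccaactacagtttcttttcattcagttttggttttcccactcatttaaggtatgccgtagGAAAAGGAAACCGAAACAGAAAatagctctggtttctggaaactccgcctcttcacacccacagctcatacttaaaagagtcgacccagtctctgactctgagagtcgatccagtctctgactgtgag
Bst2: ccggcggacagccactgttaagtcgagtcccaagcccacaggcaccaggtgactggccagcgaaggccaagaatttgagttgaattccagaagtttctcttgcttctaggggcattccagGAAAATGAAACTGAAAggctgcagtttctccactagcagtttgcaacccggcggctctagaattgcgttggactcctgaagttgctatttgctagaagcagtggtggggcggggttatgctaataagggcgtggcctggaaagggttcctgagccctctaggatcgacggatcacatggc

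The Ifit1 window (chr19:34640639-34640938, plus strand) and the Ifit3 window (chr19:34583279-34583578, plus strand) each held the same pair of cores on the opposite strand, GAAAGTGAAA and GAAACTGAAA, the nearer ending 76 bases before the start of Ifit1 and 113 before that of Ifit3. In Isg15 (chr4:156200769-156201068, minus strand) 3 cores overlapped in 1 run that ended 57 bases before the start. In Bst2 (chr8:71537423-71537722, minus strand) 2 overlapping cores ended 115 bases before it. The windows of Irf7 and Oasl2 held no match, which says only that these letters do not occur there. A match is a description of the reference sequence and not a measured binding site.

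Sequencing depth ran from 13675945 to 24802272 counts per library, and 1 library stood apart. D50A 3 had the lowest total and a mitochondrially encoded share of 11.9%, where the remaining libraries had 4.08% to 5.14%. Its deviation from the WT mean also depended on exon length: the median over tested genes was 1.01 log2 units for genes of up to 1000 exon bases, 0.91 for the next class up to 2000, 0.23 for the next up to 4000 and -0.53 for longer genes. In the other 4 D50A libraries no length class had a median beyond 0.21 in either direction. Libraries also differed in the level of cerebellar markers. The 6 cerebellar granule cell markers summed to 628 to 876 CPM (read counts scaled to library size) in D50A 2 to 5, and to 88.0 to 95.7 CPM in D50A 1 and the 3 WT libraries, where Gabra6 had 0 to 6 counts against at least 1049. Snap25, a neuronal marker, lay between 1658 and 2111 CPM in all 8 libraries. Cstf2 itself averaged 108 ± 25.3 CPM over the D50A libraries (SD, n = 5) and 127 ± 6.66 CPM over WT (SD, n = 3), which cannot check the label of a point mutation.

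No member differed between the genotypes beyond the spread between libraries. edgeR's quasi-likelihood test called 0 of 9, and it called 0 of all 16810 genes tested (0%), with 420 genes and 0 members at an unadjusted p under 0.05. DESeq2 and limma-voom also called 0 members. All 9 estimates were above 0, with a median log2 fold change of 0.52 against -0.01 over all genes tested. That median followed 1 library: it was 0.21 without D50A 3 and 0.12 without both D50A 1 and D50A 3, and 7 of the 9 estimates were above 0 in each of those fits. Over all genes 48.6% of estimates were above 0 with all 8 libraries, 49.4% without D50A 3 and 51.1% without both. In the fits without D50A 1, alone or with D50A 3, every D50A library left had high granule cell markers and no WT library did. Genotype and cerebellar content cannot be told apart there. In the fits that keep D50A 1, it is the 1 D50A library with low markers, so the 2 are largely confounded there too. For no member did the 5 D50A libraries all exceed the 3 WT libraries, a pattern that 3.22% of tested genes had, or all fall under them, which 4.24% had.

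**Figure D1:**
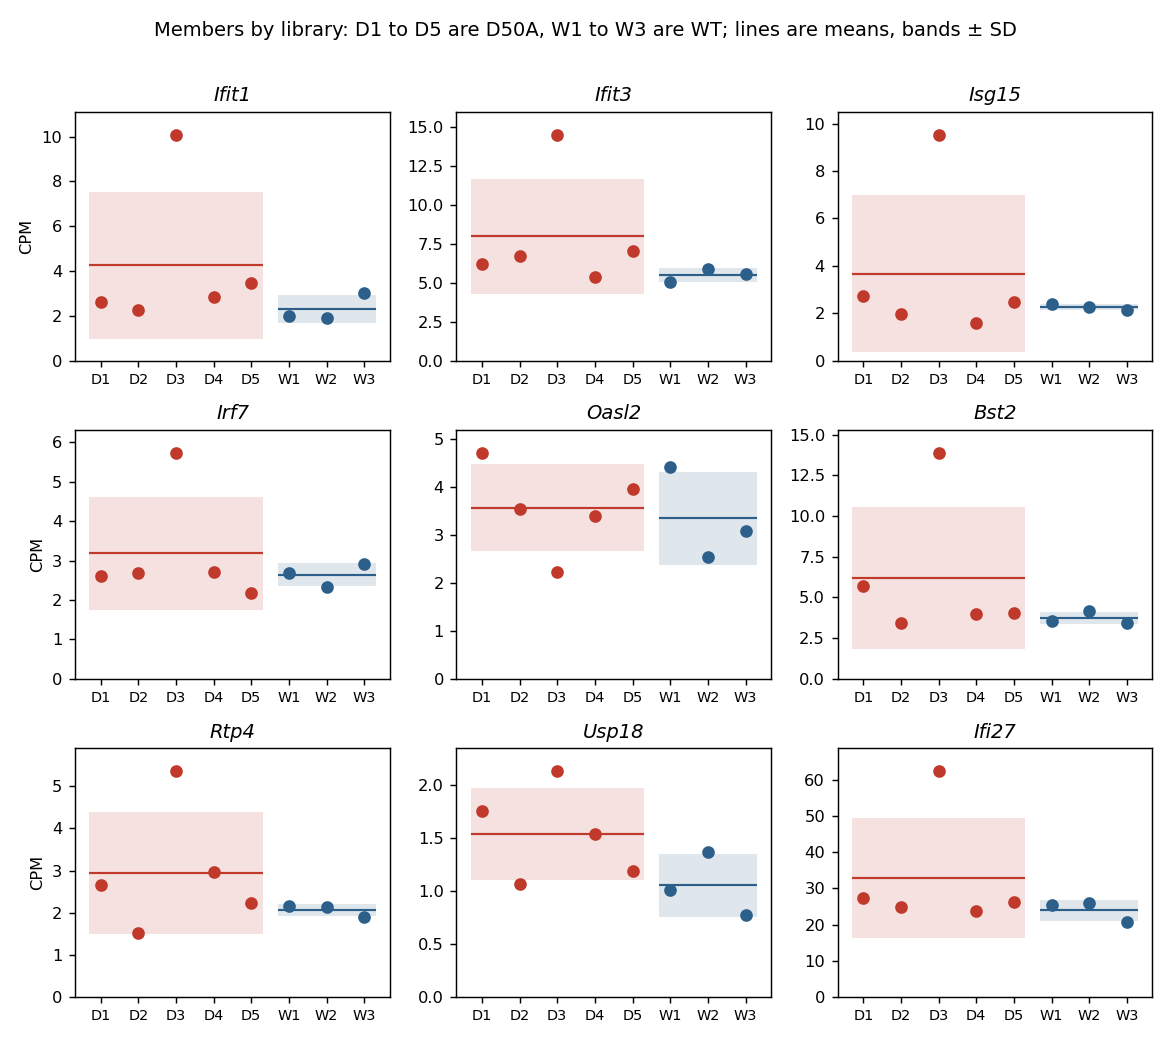
CPM (y axis, from 0) of each member in each library (x axis, D1 to D5 for the D50A libraries, red, and W1 to W3 for the WT libraries, blue), with group means as lines and ± SD as bands. D3 is the highest point in 8 panels and the lowest in the Oasl2 panel.

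D50A 3 held the highest level of 8 members and the lowest of 1, Oasl2. The mean log2 CPM of the members was 3.07 in D50A 3, 2.11 in D50A 1 and 1.76 to 1.96 in D50A 2, 4 and 5, against 1.73 to 1.81 in WT. Leaving D50A 3 aside, D50A 1 was the highest of the remaining 7 libraries for 5 members, Isg15, Oasl2, Bst2, Usp18 and Ifi27. On the log2 scale, members above their WT mean numbered 8 in D50A 1, 3 and 5 and 6 in D50A 2 and 4, while the WT libraries themselves had 5, 6 and 3.

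Irf7 encodes the transcription factor that amplifies the type I response by driving interferon alpha genes, and is itself induced by interferon. It lies on chromosome 7 (141262706 to 141266481, minus strand, mm10). Its level was 2.61, 2.69, 5.74, 2.70 and 2.18 CPM in D50A 1 to 5, and 2.69, 2.33 and 2.91 CPM in WT 1 to 3. D50A 3 was the 1 library above WT, D50A 5 lay below all 3 WT libraries and the rest fell among them. edgeR estimated 0.24 ± 0.33 log2 units (SE, adjusted p = 0.84), and the direction turned without D50A 3, at -0.04. An opposite-strand neighbour, Phrf1, shares 45 of its exon bases, and no strand setting is stated for the counts.

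Ifit1 and Ifit3 encode proteins with tetratricopeptide repeats that bind viral RNA and hold back its translation, and they are neighbours on chromosome 19. Ifit1 (34640871 to 34650009, plus strand) was at 2.61, 2.28, 10.1, 2.86 and 3.46 CPM in D50A 1 to 5. In WT 1 to 3 it was at 1.97, 1.92 and 3.03 CPM. WT 3 lay above 3 of the 5 D50A libraries, so the groups overlapped. Ifit1 had the widest difference of the 9 members, 0.85 ± 0.53 log2 units (SE, 95% interval -0.36 to 2.07, edgeR adjusted p = 0.84). Without D50A 3 it was 0.30, with an interval from -0.18 to 0.78.

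Ifit3 (34583531 to 34588731, plus strand) was at 6.19, 6.74, 14.5, 5.40 and 7.07 CPM in D50A 1 to 5, and at 5.05, 5.92 and 5.58 CPM in WT 1 to 3. In this gene 4 D50A libraries lay above all WT libraries, and D50A 4 lay among them. edgeR estimated 0.52 ± 0.33 log2 units (SE, adjusted p = 0.84). Without D50A 3 it was 0.21, with an interval from -0.07 to 0.50. Its reads are uncertain: 51.2% of the 50-base stretches of its GENCODE transcripts also occur in Ifit3b, a near-identical copy, so reads from them may have been dropped or assigned to either gene. Ifit3b itself ranged over 2.22 to 5.27 CPM in D50A, again highest in D50A 3, with WT at 2.48 to 2.61 CPM. For Ifit1 the share found in another gene was 7.1%, for Rtp4 11.6%, and for the other members 4.0% or less.

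Isg15 encodes a ubiquitin-like protein that is joined to other proteins during the interferon response, and Usp18 encodes the protease that removes it and that also damps signalling at the interferon receptor. Isg15 (chromosome 4, 156199424 to 156200818, minus strand) was at 2.73, 1.98, 9.53, 1.59 and 2.47 CPM in D50A 1 to 5 and at 2.41, 2.28 and 2.14 CPM in WT 1 to 3. D50A 3 held 3.50 times the next highest level, the widest gap of any member, while D50A 2 and D50A 4 lay below all WT libraries. edgeR estimated 0.64 ± 0.59 log2 units (SE, adjusted p = 0.84), and without D50A 3 it was -0.03 with an interval from -0.48 to 0.42.

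Usp18 (chromosome 6, 121245906 to 121270917, plus strand) was the member with the fewest reads, 13 to 45 per library. Its level was 1.75, 1.06, 2.13, 1.54 and 1.19 CPM in D50A 1 to 5 and 1.01, 1.37 and 0.772 CPM in WT 1 to 3. D50A 1, 3 and 4 lay above all WT libraries, and the other D50A libraries lay between WT 1 and WT 2. Usp18 had the smallest unadjusted p of the 9 members, 0.12 by edgeR, at 0.52 ± 0.30 log2 units (SE, adjusted p = 0.84). Without D50A 3 its estimate was 0.41 with an interval from -0.20 to 1.01. The lowest count, 13 in WT 3, has an exact 95% Poisson interval of 6.92 to 22.2 for counting error alone.

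Bst2 and Oasl2 encode further antiviral proteins. Bst2, or tetherin, holds budding enveloped viruses on the cell surface, and lies on chromosome 8 (71534255 to 71537456, minus strand). Its level was 5.72, 3.40, 13.9, 3.97 and 4.05 CPM in D50A 1 to 5 and 3.56, 4.15 and 3.45 CPM in WT 1 to 3. D50A 1 and D50A 3 lay above WT and the other 3 fell within or below the WT range. edgeR estimated 0.72 ± 0.48 log2 units (SE, adjusted p = 0.84). It was 0.22 without D50A 3 and 0.05 without both D50A 1 and D50A 3.

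Oasl2 encodes a protein related to the oligoadenylate synthetases that respond to double-stranded RNA, and lies on chromosome 5 (114896936 to 114912234, plus strand). It was at 4.71, 3.55, 2.22, 3.39 and 3.96 CPM in D50A 1 to 5 and at 4.43, 2.53 and 3.09 CPM in WT 1 to 3. The WT libraries spanned most of the range, and D50A 3, the highest library for the other 8 members, was here the lowest of all. edgeR estimated 0.10 ± 0.28 log2 units (SE, adjusted p = 0.89). It was -0.0027 without D50A 1, where genotype and cerebellar content cannot be told apart, 0.23 without D50A 3 and -0.07 without WT 2.

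Rtp4 encodes a receptor transporter protein that is induced by interferon, and lies on chromosome 16 (23520291 to 23614222, plus strand). It was at 2.65, 1.52, 5.37, 2.97 and 2.22 CPM in D50A 1 to 5 and at 2.17, 2.13 and 1.90 CPM in WT 1 to 3. D50A 2 lay below the narrow WT range and the other 4 lay above it. edgeR estimated 0.48 ± 0.37 log2 units (SE, adjusted p = 0.84), and 0.19 without D50A 3.

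Ifi27, a small hydrophobic protein gene named for its induction by interferon alpha, was the most abundant member and the best measured, with 348 to 700 counts per library. It lies on chromosome 12 (103434211 to 103440239, plus strand). Its level was 27.3, 24.7, 62.5, 23.8 and 26.2 CPM in D50A 1 to 5 and 25.4, 25.9 and 20.7 CPM in WT 1 to 3. Apart from D50A 3 the 7 libraries lay within 1.32 times of each other. edgeR estimated 0.45 ± 0.35 log2 units (SE, adjusted p = 0.84). Without D50A 3 it was 0.10 with an interval from -0.10 to 0.30, the narrowest of the 9 in that fit.

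**Figure D2:**
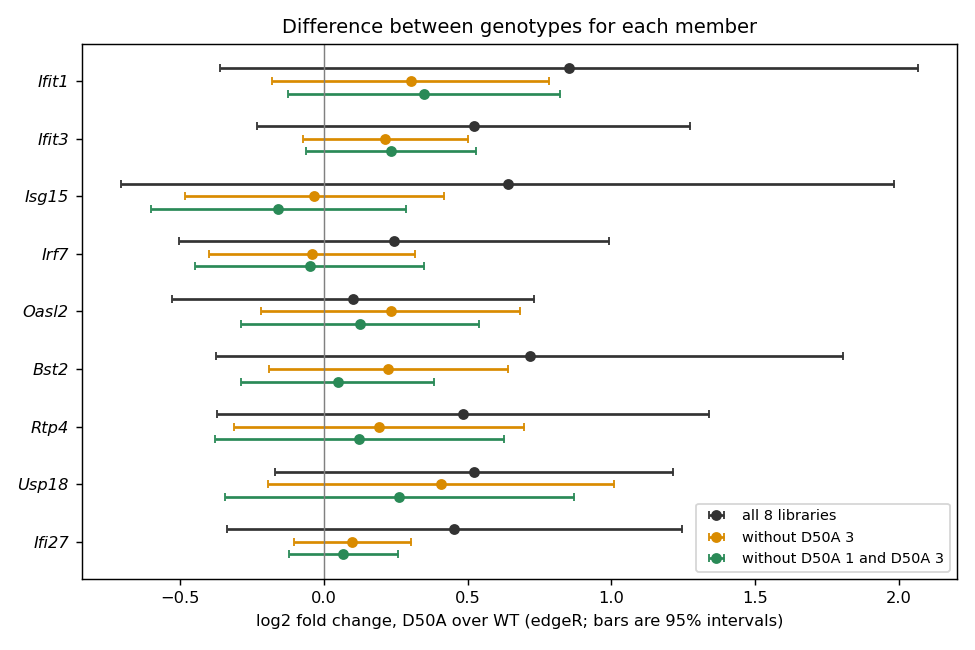
Log2 fold change of D50A over WT (x axis) for each member (y axis), as fitted by edgeR on all 8 libraries (black), without D50A 3 (orange) and without D50A 1 and D50A 3 (green); bars are 95% intervals. Every interval includes 0, and the intervals are narrower in both reduced fits. In the green fit genotype and cerebellar content cannot be told apart. In the black and orange fits D50A 1 is the 1 D50A library with low granule cell markers.

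These intervals set what the data could show. With all 8 libraries the upper bounds ran from 0.73 for Oasl2 to 2.07 for Ifit1 on the log2 scale and the lower bounds from -0.71 for Isg15 to -0.17 for Usp18. Without D50A 3 the upper bounds ran from 0.30 for Ifi27 to 1.01 for Usp18, and the lower bounds from -0.48 for Isg15 to -0.07 for Ifit3. Among the 7 libraries other than D50A 3, the coefficient of variation of the CPM was 8.62% for Ifi27, where counting error alone gives about 4.44%. For Usp18 the values were 26.9% and 19.7%, and for Irf7 the observed 9.68% was below the 13.8% that counting gives. Reads without molecular identifiers are not independent molecules, so these figures cover counting error only.

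Per kilobase of merged exon, the basal levels in WT brain spanned a wide range. Ifi27 was highest, at 16.3 ± 1.95 CPM per kb (SD, n = 3), followed by Bst2 at 4.12 ± 0.420. Ifit3 at 3.16 ± 0.252 and Isg15 at 3.01 ± 0.177 came next and overlapped each other. Rtp4 at 0.969 ± 0.0670, Ifit1 at 0.869 ± 0.235, Irf7 at 0.700 ± 0.0779, Oasl2 at 0.525 ± 0.153 and Usp18 at 0.376 ± 0.107 followed, and each neighbouring pair among these 5 overlapped across the WT libraries. Lengths came from GENCODE M21. For Irf7 the merged length of 3776 bases is the whole gene, since some annotated transcripts keep introns, so its level per kilobase is a low estimate.

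The members' deviations in D50A 3 can be read against exon length. Isg15 and Bst2, the shortest at 756 and 903 exon bases, were 2.02 and 1.88 log2 units above the WT mean there. Ifi27 and Ifit3, at 1467 and 1745 bases, were 1.39 and 1.38 above it. Rtp4, Ifit1, Usp18 and Irf7, from 2131 to 3776 bases, were 1.34, 2.11, 0.98 and 1.09 above it. Oasl2, the longest at 6374 bases, was 0.53 below it, the same as the median of its length class, -0.53. The other 8 members lay above the median of their class. Isg15, Bst2, Ifi27 and Ifit3 lay below its upper quartile, 2.22 for genes of up to 1000 bases and 1.64 for the next class. Ifit1, Irf7, Rtp4 and Usp18 lay above theirs, 0.97, Usp18 only narrowly at 0.98. The class of Irf7 is uncertain, because its merged length of 3776 bases is the whole gene with introns. Of all genes with a length 40.2% were highest in D50A 3, and 59.4%, 65.8%, 49.4% and 26.7% of the 4 classes in order of length.

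**Figure D3:**
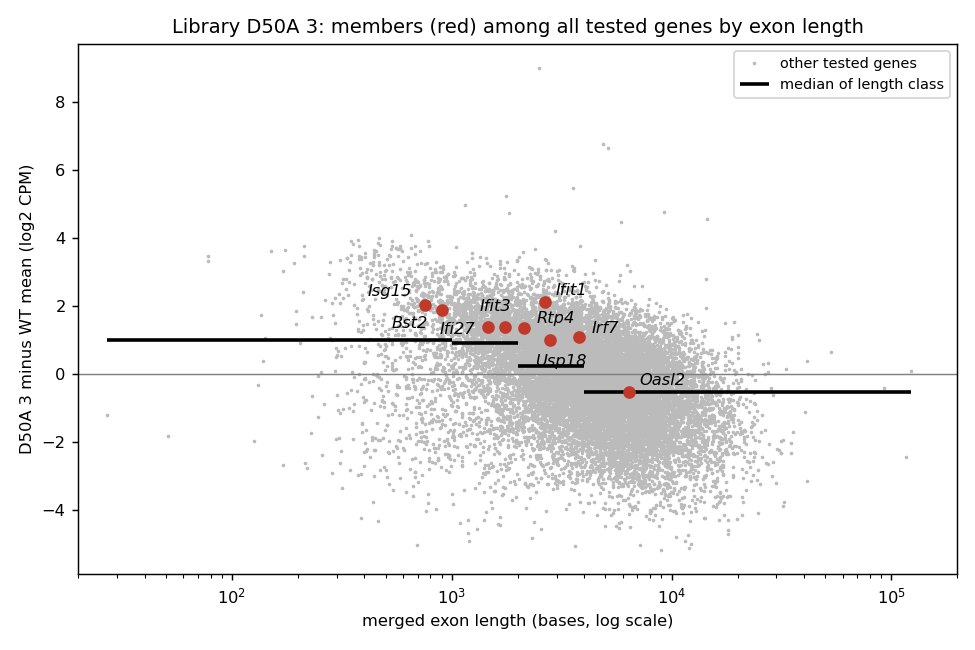
Difference of library D50A 3 from the WT mean in log2 CPM (y axis) against merged exon length in bases (x axis, log scale) for all tested genes with a length (grey) and the 9 members (red); black lines are the medians of 4 length classes, 1.01, 0.91, 0.23 and -0.53. Oasl2 lies on the line of the longest class and the other 8 members lie above theirs. The length of Irf7 includes introns that some annotated transcripts keep.

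Sums of the markers of several other cell types also differed in the same library, and a sum mostly follows its most abundant genes. The 11 microglia markers, all detected, summed to 783 CPM in D50A 3, against 288 to 344 CPM in the other 4 D50A libraries and 322 to 329 CPM in WT. The 13 markers of border macrophages and blood leukocytes summed to 67.2 CPM in D50A 3 and 18.8 to 38.8 CPM elsewhere, and the 5 erythroid markers to 2363 CPM against 306 to 548 CPM. Astrocyte markers (6) summed to 2353 CPM against 1260 to 1521, and oligodendrocyte markers (5) to 19135 CPM against 8528 to 10384. Choroid plexus markers (5) summed to 834 CPM against 430 to 572. Of these 5 markers, 2 had edgeR estimates above 0 over all 8 libraries, with a median log2 fold change of -0.05. The 9 endothelial markers were at 343 CPM in D50A 3 and 283 to 340 CPM elsewhere, and the 5 of meninges at 143 CPM against 99.7 to 152. The sum of the neuronal markers (5) was lowest in D50A 3, at 3936 CPM against 4227 to 4797. Snap25, 1 of these markers, went the other way and was highest there, at 2111 CPM against 1658 to 1803. The 8 ribosomal protein genes summed to 12100 CPM against 1235 to 1676. None of these lists was at 0 throughout. The part of cell content, exon length or library quality in the high members of D50A 3 was not tested.

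The interferon ligands themselves were at the edge of detection. Of 12 listed ligand genes, 7 were not found in the deposited counts, so they had no counts to analyse. The other 5, Ifna2, Ifnk, Ifne, Ifnz and Ifng, had 0 to 3 counts in any library and none was tested. Ifng, the type II interferon gene, had 0 or 1 count in every library, and no difference in the transcripts of these 5 genes was detectable at this depth.

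Receptor and signalling genes had estimates in both directions. Of 11 tested, 0 were called, 5 estimates were above 0 and the median log2 fold change was -0.01, the same as over all genes. Jak1, the kinase shared by interferon receptors, averaged 132 ± 32.3 CPM over D50A (SD, n = 5) and 160.4 ± 14.2 CPM over WT (SD, n = 3). Irf9, the DNA-binding subunit of that complex, was at 11.8 ± 1.22 CPM against 13.2 ± 0.924. The interferon gamma receptor subunits Ifngr1 and Ifngr2 were at 14.1 ± 1.16 against 12.7 ± 0.855 CPM and at 55.9 ± 30.0 against 43.3 ± 3.08 CPM. Ifngr2 reached 109.5 CPM in D50A 3 and 39.9 to 45.9 CPM in the other 7 libraries.

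Among 14 tested genes of nucleic acid sensing, 0 were called, 7 estimates were above 0 and the median was -0.01. Dhx58, which encodes the RIG-I-like helicase LGP2, was 1 gene with separated groups: it had 1.87, 1.67, 1.67, 2.33 and 2.32 CPM in D50A 1 to 5 and 1.40, 1.01 and 1.07 CPM in WT 1 to 3. All 5 D50A libraries exceeded the 3 WT libraries, as in 3.22% of all tested genes, and D50A 3 was the lowest of the 5. The difference was 0.77 ± 0.22 log2 units (SE), for which edgeR gave an unadjusted p of 0.0085 and an adjusted p of 0.84. limma-voom with sample quality weights called it higher (adjusted p = 0.038), where it called 1.87% of tested genes higher, and so did edgeR without D50A 1 and D50A 3 (adjusted p = 0.045), where 3.36% were called higher. Neither set of calls held a member. In that second fit the D50A libraries left are 3 with summed granule cell markers of 628 to 876 CPM, against 88.0 to 94.2 CPM in WT. The limma-voom fit kept every library, and in it D50A 2 to 5 had such high markers. The part of cerebellar content in either call was not tested. The sensing pathway genes Tlr3, Tmem173 (STING) and Zbp1 were at 11.5 ± 1.51 against 13.3 ± 1.36 CPM, 2.37 ± 0.421 against 2.82 ± 0.374 CPM and 0.707 ± 0.612 against 0.391 ± 0.130 CPM, with edgeR adjusted p of 0.84 each. Without D50A 3 the D50A mean of Zbp1 was 0.445 ± 0.201 CPM, and limma-voom gave it a difference of -0.02 log2 units.

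The enzymes that attach ISG15 to proteins numbered 3, with 0 called and 2 estimates above 0. Uba7, the activating enzyme, averaged 3.56 ± 1.36 CPM over D50A (SD, n = 5) and 3.49 ± 0.579 CPM over WT (SD, n = 3). Ube2l6, the conjugating enzyme, reached 25.7 CPM in D50A 3, against at most 6.49 CPM elsewhere. Herc6, the ligase, was at 12.3, 14.2, 13.4, 14.9 and 15.7 CPM in D50A 1 to 5 and at 16.3, 16.4 and 21.8 CPM in WT 1 to 3, so that the groups did not overlap; 4.24% of all tested genes lay wholly below WT in this way. The difference was -0.36 ± 0.15 log2 units (SE, edgeR unadjusted p = 0.045, adjusted p = 0.84). Of the 5 listed inhibitors and regulatory factors 0 were called, with a median of -0.09. The inhibitors Socs1 and Socs3 were at 1.25 ± 0.152 against 1.09 ± 0.115 CPM and 2.84 ± 0.819 against 3.41 ± 0.395 CPM. The factors Irf1 and Irf2 were at 5.07 ± 0.493 against 5.49 ± 0.823 CPM and 16.5 ± 3.65 against 17.6 ± 1.19 CPM, and without D50A 3 the Irf2 mean of D50A was 17.9 ± 2.13 CPM.

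Among the remaining interferon-stimulated genes no call was made. Of 53 listed, 46 were tested and 0 called, 32 estimates were above 0, and the median log2 fold change was 0.20, or 0.02 without D50A 3 with 24 of 46 above 0. In 2 of the 46 the 5 D50A libraries all exceeded WT, as in 3.22% of all tested genes, and in 0 they all fell under it, as in 4.24%. The share above is near that background. These were Gbp6, a guanylate-binding GTPase gene, with means of 3.37 ± 0.314 (D50A, SD, n = 5) and 2.53 ± 0.352 CPM (WT, SD, n = 3), and Parp9, with 4.14 ± 0.892 and 3.25 ± 0.125 CPM, the latter named after its values were seen. Epsti1 and Ifi47 were at 1.35 ± 0.760 against 0.669 ± 0.174 CPM and 1.19 ± 0.425 against 0.715 ± 0.244 CPM. Ifi27l2a, a relative of Ifi27, reached 10.1 CPM in D50A 3, against 0.658 to 1.70 CPM elsewhere. edgeR gave an adjusted p of 0.84 for each of these 5 genes.

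**Figure D4:**
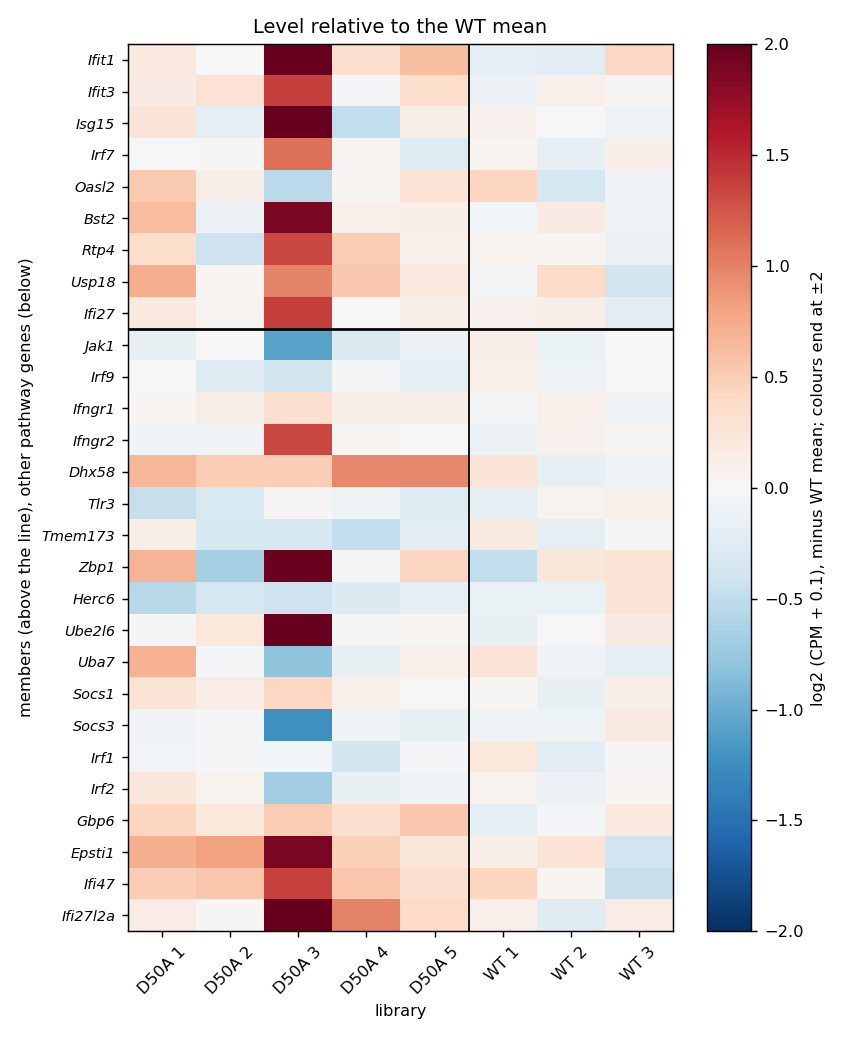
Level of the members (above the black line) and of other pathway genes (below it) in each library, as log2 of CPM plus 0.1 minus the WT mean (colour scale ending at ±2). D50A 3 is the column with the strongest colours, while for Dhx58 and Gbp6 all 5 D50A columns exceed the 3 WT columns and for Herc6 all 5 are below them.

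Genes were also ranked by how near their profile over the 8 libraries came to the mean profile of the members. Likeness was the root mean square difference of centred log2 CPM over 13829 genes with an average of at least 1 log2 CPM. Cope, Uap1l1, Mrpl44 and Tmem107 were 4 of the 5 nearest, at 0.0596 to 0.0676 log2 units. Cope reached 208 CPM in D50A 3, against 86.8 to 102 CPM elsewhere, and Mrpl44 reached 38.1 CPM against 14.5 to 17.2. Each of these 4 genes was highest in D50A 3. The 8 libraries share 1 table and D50A 3 sets most of each profile, so the likeness describes that library.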

How the data were processed

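Poly(A)-selected RNA of whole brain from 5 D50A and 3 WT mice was measured by RNA-seq. Values are the authors' read counts for each gene, without normalization, per the file headers. The submitters' processing notes name CASAVA 1.8, STAR 2.5, HTSeq 0.6.1 and DESeq2 2 with build mm10. Their order and the annotation, strandedness and rule for multi-mapping reads were not given in the sources used here.

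Groups came from the genotype labels, and replicate numbers follow deposit order and pair no animals. Counts of all 8 libraries were fitted across all genes with edgeR 4.0.16 (quasi-likelihood test, filterByExpr, TMM, Benjamini-Hochberg, threshold 0.05) in R 4.3.3, and tested on simulated data first. CPM were computed on library sizes times TMM factors; log2 CPM add a prior count of 2. An SE is the log2 fold change over the square root of F. Alternatives were DESeq2 1.42.0, limma-voom (limma 3.58.1) with sample quality weights, other scalings, filters and thresholds, removal of mitochondrially encoded and hemoglobin genes, and libraries left out. GENCODE M21 matched 25484 of the 25815 genes; Ifit3b and Ifit1bl1 were matched by identifier.

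The members, gene lists and doubted libraries were chosen with earlier results of these data known. Named genes were all members, the 4 genes of each list with the smallest p, the 5 nearest profiles and Cstf2; 1 of the 5 is not reported here. Marker lists were summed in CPM.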

Additional observations from a re-analysis of the deposited data

Results flagged for a closer look

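In 6 of the 9 members 1 D50A library lay far from the other 4, and it was D50A 3 each time: Ifit1 at 10.1 CPM (next highest 3.46), Ifit3 at 14.5 CPM (7.07), Isg15 at 9.53 CPM (2.73), Irf7 at 5.74 CPM (2.70), Bst2 at 13.9 CPM (5.72) and Ifi27 at 62.5 CPM (27.3). The mean log2 CPM of the members was likewise 3.07 in D50A 3, with 2.11 the next highest. Among other pathway genes D50A 3 was far above the rest for Ifngr2 (109.5 CPM), Ube2l6 (25.7 CPM), Epsti1 (2.68 CPM), Ifi47 (1.94 CPM) and Ifi27l2a (10.1 CPM), and far below for Socs3 (1.39 CPM, next lowest 3.07). Sums over whole lists differed from these genes, and a sum mostly follows its most abundant genes. Gene by gene, 32 of the 46 other interferon-stimulated genes tested had estimates above 0 with all 8 libraries, with a median log2 fold change of 0.20. Without D50A 3 the values were 24 of 46 and 0.02. Summed CPM was lowest in D50A 3 for other interferon-stimulated genes (321 against 340 to 415) and receptor and signalling genes (339 against 386.5 to 429). It was also lowest there for sensing genes (93.9 against 114 to 122) and for inhibitors and regulatory factors (25.6 against 29.9 to 36.7). For conjugation enzymes it was highest there (41.1 against 23.4 to 31.1). Cope (208 CPM), Uap1l1 (37.1 CPM), Mrpl44 (38.1 CPM) and Tmem107 (17.9 CPM), picked for their likeness to the members, were also far above the rest there, which follows from that choice. Irf1 was the case from another library, with 4.18 CPM in D50A 4 and 5.26 CPM as the next lowest. Leaving aside the genes picked for likeness, 14 of 30 sets of 5 values stood out. All but that of Irf1 come from the same library and are not independent. The nominal rate of about 1 in 20 is no background for them, because D50A 3 was extreme for many genes. Of all genes with a length 40.2% were highest in D50A 3 and 44.3% were lowest there. The share of all tested genes that stood out in this way was not computed, so these flags describe that library.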

How the results depend on the processing

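No member was called by edgeR under any scaling, filter, gene removal, left-out library or threshold run, nor by DESeq2 or limma-voom. Over all genes DESeq2 called 37 (31 higher, 6 lower), limma-voom 517, edgeR without D50A 1 and D50A 3 1065, and edgeR with 1 library left out 0 to 26, the 26 without D50A 1. Without D50A 1, alone or with D50A 3, genotype and cerebellar content cannot be told apart. In the DESeq2 and limma-voom fits D50A 1 was the 1 D50A library with low granule cell markers. The part of cerebellar content in these calls was not tested. The members' median log2 fold change ran from 0.21 (without D50A 3) to 0.63 with 1 library left out; it was 0.10 by limma-voom, 0.12 without D50A 1 and D50A 3, and 0.43 to 0.57 under other scalings. Under these alternatives 8 member estimates changed direction, none of them called: Isg15 to -0.18 by limma-voom and -0.16 without D50A 1 and D50A 3 (-0.034 to 0.84 with 1 library left out, lowest without D50A 3), Irf7 to -0.037 and -0.050 (-0.042 to 0.36, lowest without D50A 3), and Oasl2 to -0.0027 without D50A 1 and -0.069 without WT 2 (up to 0.35). The cause was not tested. Depth limits Usp18 most, with 13 to 45 counts. No paired analysis was possible because the labels carry no replicate numbers.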

Other observations

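Stat2, which encodes a subunit of the interferon-activated transcription factor complex, was not among the genes named by rule and was picked after its values were seen. It was at 33.7, 39.7, 11.4, 41.1 and 39.4 CPM in D50A 1 to 5 and at 35.0, 30.5 and 29.9 CPM in WT 1 to 3, so D50A 3 was by far the lowest and D50A 2, 4 and 5 lay above all WT libraries. Its log2 fold change was 0.06 over all 8 libraries (edgeR adjusted p = 0.95), 0.28 without D50A 3 (adjusted p = 0.33) and 0.35 without D50A 1 and D50A 3 (adjusted p = 0.0083). limma-voom gave 0.32 (adjusted p = 0.054). The D50A libraries left in the fit without D50A 1 and D50A 3 are 3 with summed cerebellar granule cell markers of 628 to 876 CPM, against 88.0 to 94.2 CPM in WT; the part of that difference was not tested.

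Across the pathway lists, the promoter core searched in the members occurred in the RefSeq windows of 24 of 42 other interferon-stimulated genes that had a window, 5 of 12 ligand genes, 2 of 5 inhibitors and regulatory factors, 2 of 10 sensing genes, 1 of 10 receptor and signalling genes and 0 of 3 conjugation enzymes. Of all genes with a window 3.99% held it.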
